A study of Mus musculus with 2 samples.

Results

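The genes described here are the cathepsins, the lysosome-associated membrane proteins (LAMPs) and the genes named for subunits of the vacuolar proton pump (V-ATPase) in immune cells of MC38 tumors. They were chosen by symbol alone, as every row whose symbol begins with Atp6v, begins with Lamp followed by a digit, or is Cts plus 1 letter. This gave 45 of the 32285 genes in the count matrices, made up of 18 cathepsins, 4 LAMPs and 23 genes with a V-ATPase name. The V-ATPase names include Atp6v1fnb, which is named as a neighbor of a subunit gene. MC38 is a mouse colon carcinoma line. CD45+ cells were sorted from MC38 tumors grown in WT mice, and each library pooled the cells of several tumors. The Control library came from tumors that received no irradiation, and the IR library came from tumors collected 4 days after a single local dose of 20 Gy. There was 1 library per group, so no difference between Control and IR has a replicate check, and no test or p-value is given. GEO's cell type label reads CD45+CD11b+Ly6Chi for both libraries, whereas the sorting protocol names CD45 alone, and T, NK and dendritic cells were present in both. Ptprc, the gene of CD45, was found in all immune lineages but was low in fibroblasts (12.7 and 7.90 CPM, against 412 and 509 CPM in monocytes and macrophages).

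Lysosomes digest proteins, lipids and sugars that a cell takes up or recycles. The V-ATPase pumps protons into the lysosome: its membrane part, V0, forms the proton channel, and its outer part, V1, burns ATP to drive it. Cathepsins are the proteases that work in this acid, and most of them (B, C, H, K, L, S, W and Z among them) are cysteine proteases, while D and E are aspartic proteases, and A and G are serine proteases. LAMP-1 and LAMP-2 are heavily glycosylated proteins that line the lysosomal membrane. In macrophages this system degrades engulfed material, and in antigen-presenting cells it trims the invariant chain and the peptides loaded on MHC class II. The same proteins are used outside the cell by osteoclasts, the bone-resorbing relatives of macrophages, which secrete acid and cathepsin K onto bone.

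Many lysosomal genes are bound at their promoters by TFEB and its relatives through an element built on the letters CACGTG. The sequences are shown because the choice by symbol did not use this element, which some of the genes hold. Promoters (300 bases around the start, RefSeq, GRCm38.p6) were listed for 35 of the 45 genes, and 9 of the 35 (25.7%) held CACGTG, against 8.09% of all 27025 symbols listed. A gene with several listed promoters was counted if any of them matched. The longer form TCACGTGA, which contains CACGTG and was searched on both strands like the others, was found for 5 of 35 genes (14.3%), against 1.12% of all symbols. GTCACGTG, which overlaps both, was also found in 5 (14.3%), against 2.55%, and TCACGTGAC in 3 (8.57%), against 0.895%. All 9 genes with CACGTG were among the 23 of the 35 with at least 20 UMIs in these libraries. The symbols compared were not chosen by expression, and the part of this in the contrast was not tested. A match is a description of letters, not of binding. Stretches from 8 promoters are printed 5′ to 3′ on the gene's strand with CACGTG in capitals. Lamp1 held 4 copies, and Ctsa, Atp6v0b and Ctsd held 2 copies each, of which 1 of Ctsd lies outside the printed stretch. For comparison, the last line is the stretch just before the start of Ctsk, which held none in its window.
Ctsd, chr7:142387904-142387941, minus strand: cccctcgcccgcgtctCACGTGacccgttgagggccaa
Ctsa, chr2:164833745-164833787, plus strand: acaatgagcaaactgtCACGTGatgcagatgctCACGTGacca
Lamp1, chr8:13159084-13159167, plus strand: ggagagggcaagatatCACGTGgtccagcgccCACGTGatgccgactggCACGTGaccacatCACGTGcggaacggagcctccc
Atp6v0b, chr4:117887326-117887381, minus strand: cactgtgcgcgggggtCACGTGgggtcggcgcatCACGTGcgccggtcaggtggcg
Atp6v0d1, chr8:105566050-105566083, minus strand: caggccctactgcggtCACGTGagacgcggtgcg
Atp6v1a, chr16:44139369-44139406, minus strand: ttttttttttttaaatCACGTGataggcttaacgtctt
Ctsl, chr13:64370735-64370770, minus strand: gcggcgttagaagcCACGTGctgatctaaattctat
Ctsk, chr3:95499090-95499209, plus strand: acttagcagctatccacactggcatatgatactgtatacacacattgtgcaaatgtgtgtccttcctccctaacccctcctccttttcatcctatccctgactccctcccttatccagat

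After filtering, 4679 Control and 3410 IR barcodes were kept, with 41533178 and 37842119 unique molecular identifiers (UMIs, single captured transcripts) and medians of 7302 and 8268.5 UMIs per barcode. Only 6 barcode sequences occurred in both libraries. Barcodes were assigned to 9 lineages by genes that are not cathepsins, LAMPs or V-ATPase genes. Each lineage's own markers were highest there, except Ly6c2 in Control and Adgre1 in IR for the monocyte/macrophage lineage and Clec9a in IR for dendritic cells. Monocytes and macrophages made up 62.5% of kept Control barcodes (2924) and 48.6% of IR barcodes (1658). Within them, barcodes were gated by 6 monocyte genes against the 3 C1q genes: the monocyte gate held 684 Control and 1113 IR barcodes, and the macrophage gate held 2053 and 462. Levels are given as CPM, the UMIs of a gene scaled to a population total of 1000000 UMIs, with exact Poisson 95% intervals, and these intervals, like the exact binomial intervals of shares, cover counting error only. The libraries count the 3′ end of each transcript, so levels were compared between populations and not between genes.

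The digestive genes were unevenly spread over the lineages. Of the 45 genes, 33 had at least 20 UMIs over both libraries, among them Lamp1 and Lamp2. The other 12 of the 45 were nearly silent, with 0 to 12 UMIs in all kept barcodes: Lamp3, Lamp5, Ctsj, Ctsm, Ctsq, Ctsr, Atp6v0a4, Atp6v0e2, Atp6v1b1, Atp6v1c2, Atp6v1e2 and Atp6v1fnb. In the monocyte/macrophage lineage, the summed cathepsin level was 8716 CPM in Control (95% interval 8681 to 8751) and 8874 CPM in IR (8831 to 8918). It was 2149 (Control) and 2251 CPM (IR) in T cells, 2211 and 1816 CPM in NK cells and 2700 and 3500 CPM in dendritic cells. Cathepsin transcripts thus took up several times the share of RNA in monocytes and macrophages that they took in lymphocytes, in both libraries.

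**Figure D1:**
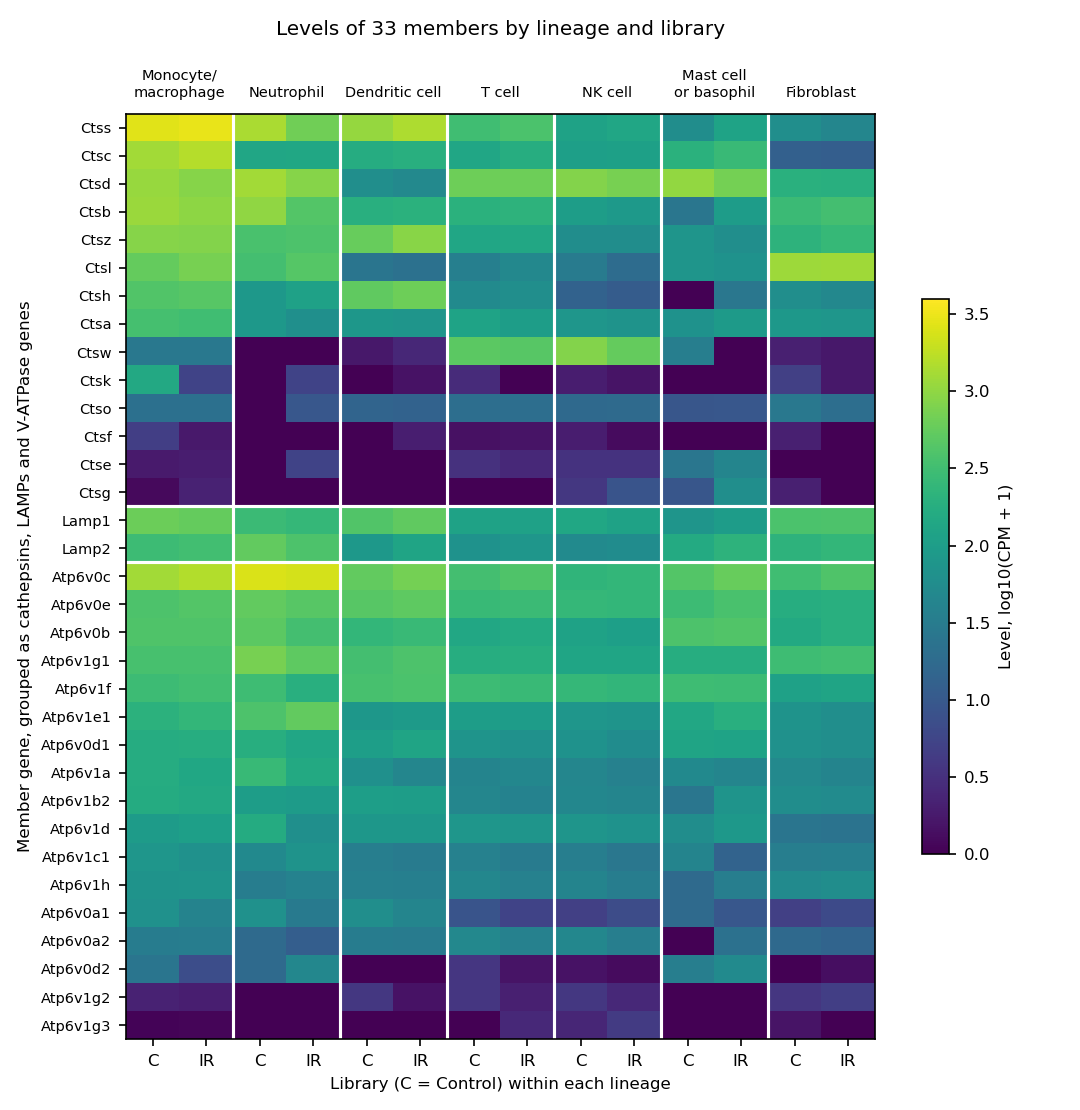
Log10 levels (CPM + 1, colour) of the 33 genes with at least 20 UMIs, one row per gene, in each gated lineage of the Control and IR libraries. Ctss, Ctsc and Ctsz are high in the monocyte/macrophage columns, Ctsw in the NK and T cell columns, Atp6v0c in the neutrophil columns and Ctsl in the fibroblast columns, with low Ctsl in T, NK and dendritic cells of both libraries.

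Several genes were concentrated in 1 or a few lineages. Ctss, the protease that trims the invariant chain in antigen-presenting cells, stood at 2779 CPM in Control and 3044 CPM in IR monocytes and macrophages. The next lineage for Ctss was neutrophils in Control at 1407 CPM and dendritic cells in IR at 1420 CPM. Ctsc, the dipeptidyl peptidase that activates granule serine proteases, stood at 1279 and 1577 CPM in monocytes and macrophages, and mast cells or basophils came next at 199 and 277 CPM. For both genes the gap to the next lineage exceeded the counting intervals in both libraries.

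Ctsw, a cathepsin known from cytotoxic lymphocytes, stood at 842 CPM in Control and 568 CPM in IR NK cells. In T cells Ctsw stood at 500 and 460 CPM. Dendritic cells had Ctsw at 0.711 and 1.52 CPM, from 1 and 3 UMIs, so its level there was near 0. Ctsh, a cathepsin with aminopeptidase activity, was highest in dendritic cells at 526 CPM in Control and 628 CPM in IR. Monocytes and macrophages followed for Ctsh at 423 and 460 CPM, with intervals apart from those of dendritic cells in both libraries.

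Ctsl, a broad endopeptidase, was highest among the larger lineages in the 91 Control and 91 IR fibroblasts, at 1173 and 1204 CPM. Monocytes and macrophages were second for Ctsl at 553 and 725 CPM, and dendritic cells stood at only 24.2 and 20.7 CPM. In the 4 Control and 7 IR plasmacytoid dendritic cells, too few to rank, Ctsl stood at 1411 CPM (993 to 1945) and 1993 CPM (1594 to 2461). Atp6v0c, which encodes the ring of the V0 proton channel, led in neutrophils at 2466 CPM in the 31 Control and 2300 CPM in the 166 IR barcodes. Monocytes and macrophages followed for Atp6v0c at 1274 and 1517 CPM. Atp6v0b, another ring subunit, stood out in no lineage, with overlapping intervals in monocytes and macrophages (409 and 400.4 CPM) and in mast cells or basophils (390.3 and 413 CPM).

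Within monocytes and macrophages the subsets differed as well. Ctsb, a cysteine protease abundant in phagocytes, was highest in Control in the resident-like subset (gated on Lyve1, Folr2, Cbr2 and Cd209f), at 3180 CPM in 116 barcodes. Elsewhere in Control Ctsb ranged from 596 CPM in the Dcstamp Ccl17 subset to 1494 CPM in the Mmp12 Mmp13 subset. In IR the 9 resident-like barcodes had Ctsb at 2483 CPM (2157 to 2845) and the 80 Mmp12 Mmp13 barcodes at 2014 CPM (1925 to 2105), but after thinning to 2000 UMIs the order turned, with means of 3.89 and 4.58 UMIs and a median of 3 in both. Ctsc led in the Clec5a Fcgr4 Gpr84 subset at 2011 CPM in Control and 2432 CPM in IR. Atp6v0d2, a V0 subunit isoform known from osteoclasts, stood at 38.1 and 46.6 CPM in the Mmp12 Mmp13 subset. In the other subsets Atp6v0d2 was at most 10.7 CPM in IR. In Control it was at most 13 CPM there once the Ctsk-rich barcodes described further on were left out. Outside this lineage, mast cells or basophils had Atp6v0d2 at 33.2 CPM in Control (37 barcodes) and 51.1 CPM in IR (62 barcodes), and IR neutrophils at 45.4 CPM. In nonclassical monocytes Lamp2 was the gene farthest above the mean of the other subsets, at 429.9 and 337 CPM, although its intervals there overlapped those of resident-like macrophages (427 and 478 CPM). Ctsg, a granule protease made early in myeloid cells, was near 0 in all subsets, with 0.993 and 1.85 CPM in classical monocytes, and Ctsw in cycling macrophages stood at only 30.3 and 37.9 CPM. Among the lineages, Ctsg was highest in mast cells or basophils at 8.30 CPM (1 UMI) in Control and 59.6 CPM (14 UMIs) in IR, followed by NK cells at 2.86 and 7.67 CPM, with intervals apart from each other in IR but not in Control.

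The question of the IR and Control comparison was how irradiation of the tumor went with the genes of digestion in the cells that infiltrated it. A gene is said to be called where its CPM differed at least 1.5-fold with Poisson intervals that did not overlap, among genes with a mean of at least 10 CPM over both libraries. In the monocyte/macrophage lineage 28 of the 45 genes passed that level. None of the 28 was called higher in IR, against 6.86% of all 7299 genes that passed, and 3 (10.7%) were called lower, against 7.51%. The 3 were Ctsk, Atp6v0d2 and Atp6v0a1. The median log2 ratio of IR over Control was 0.02 over the 28 genes and -0.05 over all genes. In the monocyte gate 27 genes passed, 0 were called higher against 5.3% of 7070 genes, and 1, Ctsk, was called lower against 3.59%. In the macrophage gate 28 passed, 1, Ctsl, was called higher against 4.99% of 7369 genes, and 2, Ctsk and Atp6v0d2, were called lower against 5.58%. Most of the digestive genes were thus not called, as was the case for all genes. With so few genes called, these shares do not set the digestive genes apart from all genes.

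**Figure D2:**
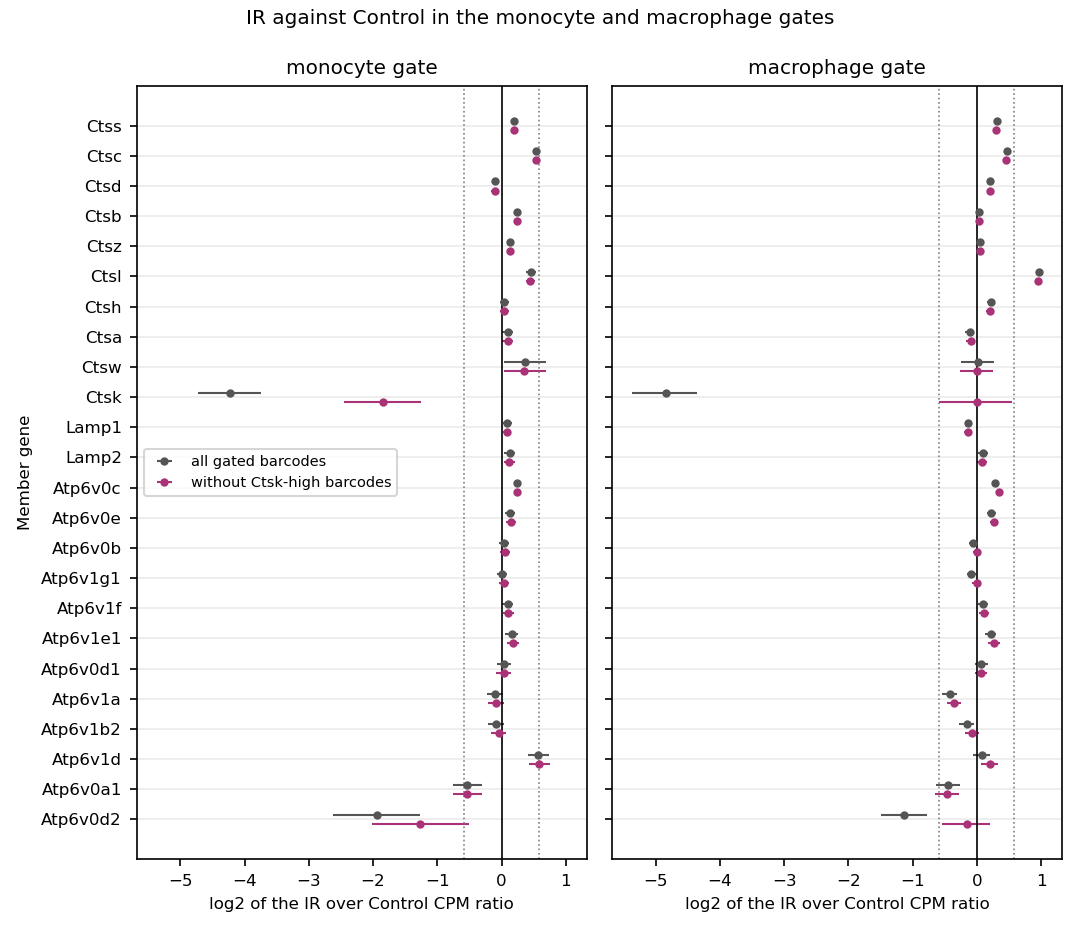
Log2 ratio of IR over Control (x axis) with its 95% interval for the named genes (y axis) in the monocyte gate and in the macrophage gate, with all gated barcodes in grey and without the Ctsk-high barcodes in purple. Ctsk, which chose the removed barcodes, moves from -4.84 to 0.00 and Atp6v0d2 from -1.13 to -0.16 in the macrophage gate, while Ctsl stays at 0.96 and 0.95.

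Ctsk encodes cathepsin K, the collagen-degrading protease by which osteoclasts dissolve bone matrix. It lies on chromosome 3 of GRCm38 (95499256 to 95509362, plus strand, protein-coding), next to Ctss. In the monocyte/macrophage lineage Ctsk stood at 148 CPM in Control (144 to 153, 4012 UMIs) and 4.24 CPM in IR (3.33 to 5.31, 75 UMIs), a log2 ratio of -5.13. In the macrophage gate it stood at 170 and 5.94 CPM (log2 ratio -4.84), and in the monocyte gate at 63.7 and 3.42 CPM (-4.22). These summed levels hid a sharp concentration: in the Control monocyte/macrophage lineage 4 of 2924 barcodes held 50% or more of all Ctsk UMIs, and a single barcode held 692.

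Over all kept barcodes, 13 Control barcodes devoted at least 5000 CPM of their RNA to Ctsk. They are called Ctsk-high here, and the threshold and the further genes described in them were chosen after the values had been seen. They were 0.278% of 4679 Control barcodes (exact binomial 95% interval 0.148 to 0.475%), and they held 4361 of the 4631 Ctsk UMIs of the Control library (94.2%). The IR library had 0 of 3410, which allows a share of up to 0.0880% (limits for a count of 0 are set at 3 counts of the total, and the exact binomial upper bound is 0.108%). Inside the group Ctsk ran from 6059 to 26805 CPM of the barcode. The next Control barcodes had 3409 and 2127 CPM, and the highest IR barcode had 1723 CPM, from a total of 58 IR barcodes with any Ctsk. By gate, 9 of the 13 lay in the macrophage gate (8 of them in no subset and 1 in the Dcstamp Ccl17 subset), 1 lay in the monocyte gate and 3 had no lineage. They were deep, with 8986 to 39002 UMIs and a median of 25112, against a median of 9344 in the Control macrophage gate, and the part of this depth in the result was not tested.

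**Figure D3:**
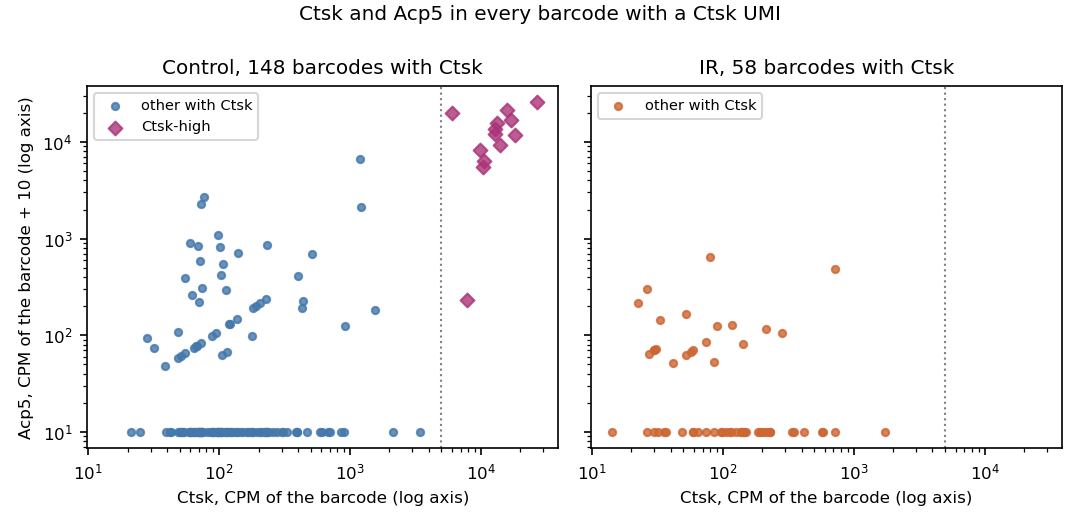
Ctsk (x axis) against Acp5 (y axis), both in CPM of the barcode on log axes, for each of the 148 Control and 58 IR barcodes with a Ctsk UMI; 10 CPM were added to Acp5 and the dotted line marks 5000 CPM of Ctsk. The 13 Control barcodes to the right of the line have Acp5 of 223 to 25599 CPM, and no IR barcode lies there.

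Without the 13 barcodes the Ctsk difference in the macrophage gate was gone. As Ctsk chose them and all lay in Control, their removal had to shrink it. Ctsk then stood at 5.94 CPM in Control (4.95 to 7.07) and 5.94 CPM in IR (4.14 to 8.27), with a log2 ratio of 0.00. Monocyte-gate barcodes had Ctsk at 12.3 and 3.42 CPM, and the whole lineage had it at 7.23 and 4.24 CPM, intervals apart but below the level required for a call. The share of macrophage-gate barcodes with any Ctsk UMI, after each barcode was thinned to 2000 UMIs, was 1.56% in Control (32 of 2053, 1.07 to 2.19%) and 1.30% in IR (6 of 462, 0.478 to 2.81%). Before thinning these shares were 4.19% and 4.33%. T cells, which should lack Ctsk, had a share of 0.587% in Control (2 of 341, median depth 4313 UMIs) and 0 of 198 in IR, which allows up to 1.52%, and the intervals of the macrophage gate overlapped those of T cells. The Mmp12 Mmp13 subset, which held no Ctsk-high barcode, differed from IR T cells: 6.25% of its IR barcodes had a Ctsk UMI after thinning (5 of 80, 2.06 to 13.99%), and 16.2% before, at a median of 11500.5 UMIs. In Control the thinned share of that subset was 2.56% (8 of 312, 1.11 to 4.99%), and its summed Ctsk level was 14.7 CPM in Control (10.8 to 19.6) and 29.0 CPM in IR (19.3 to 41.9), with overlapping intervals. Droplets of 10 to 100 UMIs, which hold free RNA, had Ctsk at 10.6 CPM in Control and 5.17 CPM in IR. Atp6v0d2 followed Ctsk: it stood at 27.5 CPM in Control and 12.6 CPM in IR macrophages with the 13 barcodes, and at 14 CPM (12.5 to 15.7) and 12.6 CPM (9.87 to 15.8) without them.

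As a pool, the Ctsk-high barcodes differed from the other Control macrophages in their digestive genes, described here with no test because Ctsk chose the barcodes. Below the threshold, a Control barcode with Ctsk at 1197 CPM also had Acp5 at 6652 and Atp6v0d2 at 665 CPM. Of the 15 V-ATPase genes with at least 10 CPM in the other 2044 Control macrophages, 12 were higher in the 13 barcodes with intervals apart, 1 was lower and 2 overlapped. The same count over all genes was not made, so whether this share was particular to V-ATPase genes was not tested. Their summed level was 16840 CPM (16388 to 17302), against 3654 CPM (3629 to 3680) in the other macrophages. Atp6v0d2 stood at 1136 CPM (1020 to 1260), against 14 CPM, an 80.9-fold difference, and ran from 279 to 1798 CPM over the single barcodes. Atp6v1d, a stalk subunit of V1, stood at 719 CPM against 88.9 CPM (8.08-fold). The V1 subunits Atp6v1b2 and Atp6v1a stood at 1033 and 885 CPM, against 152 and 167 CPM. The ring subunit Atp6v0c stood at 5505 CPM against 1226 CPM (4.49-fold). Thus V0 and V1 genes were both high, and every one of the 13 barcodes had UMIs of each of these 5 genes.

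The exceptions were isoforms. Atp6v0a1, which encodes the a subunit isoform found in most tissues, was 10.6-fold lower in the Ctsk-high barcodes, at 6.42 CPM (2 UMIs, 0.777 to 23.2) against 68.2 CPM (64.7 to 71.8). Tcirg1, which encodes the a subunit isoform of osteoclast proton pumps and whose symbol lies outside the rule, was higher, at 632 CPM (547 to 727) against 128 CPM (123 to 133). Atp6v0d1, the widely expressed d subunit isoform, overlapped at 160 CPM (119 to 211) and 171 CPM (165 to 176). Atp6v0a2, another a subunit isoform, also overlapped, at 19.2 CPM (6 UMIs, 7.06 to 41.9) and 31.5 CPM (29.2 to 34.0). The Ctsk-high barcodes therefore had Atp6v0a1 relative to Tcirg1, and Atp6v0d1 relative to Atp6v0d2, in other proportions than the macrophages around them.

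**Figure D4:**
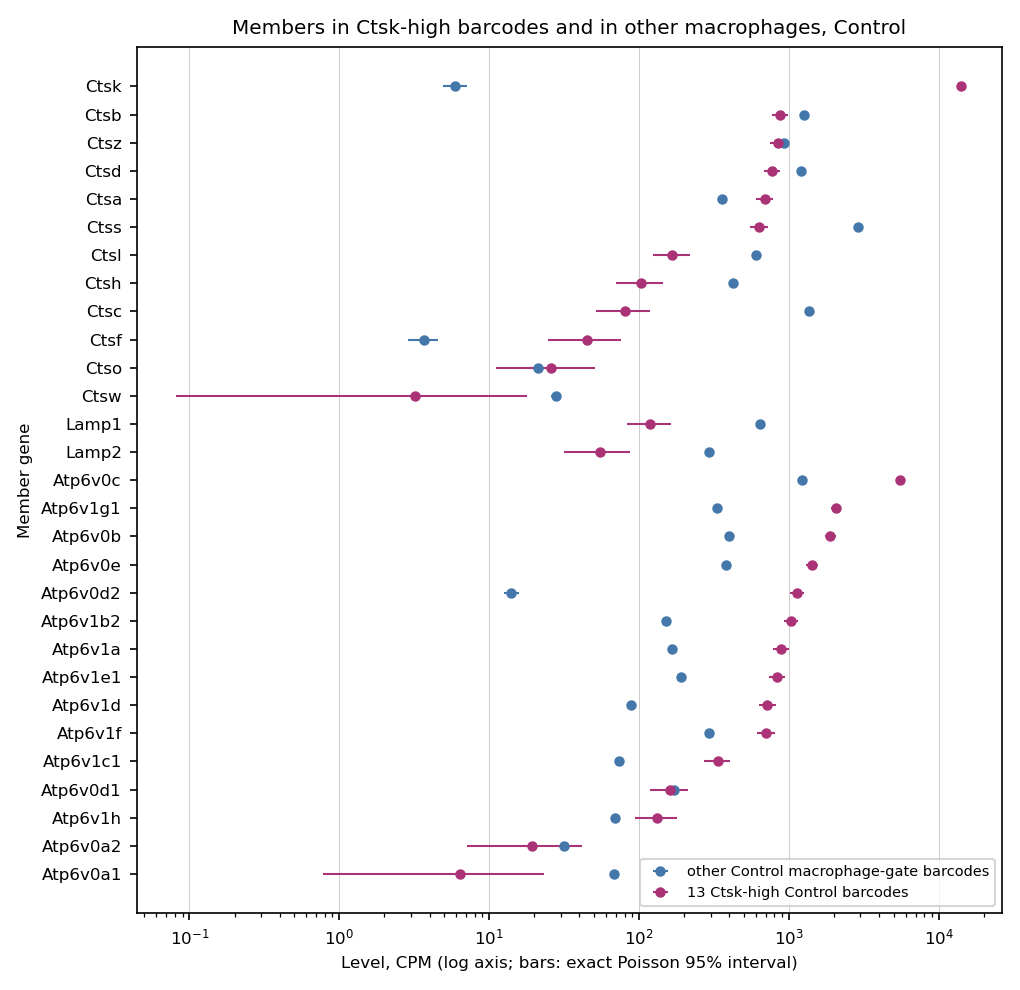
Level in CPM on a log axis (x axis) of each gene with its 95% Poisson interval in the 13 Ctsk-high Control barcodes (purple) and in the 2044 other macrophage-gate Control barcodes. V-ATPase genes such as Atp6v0d2 (1136 against 14) lie to the right of the macrophages, while Ctsc (80.2 against 1361), Ctss (632 against 2878), Lamp1 (119 against 637) and Atp6v0a1 (6.42 against 68.2) lie to the left.

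The other cathepsins and the LAMPs went mostly the opposite way. Of 10 cathepsins other than Ctsk at that level, 7 were lower in the Ctsk-high barcodes, 2 overlapped and only Ctsa was higher. Ctsa stood at 690 CPM (601 to 788) against 358 CPM (350 to 366). The level was set on the other macrophages, which left out Ctsf. It was also higher, at 44.9 CPM (24.6 to 75.4, 14 UMIs in 5 barcodes) against 3.65 CPM (2.88 to 4.55). No count over all genes was made here either, so whether the lower levels were particular to cathepsins was not tested. Ctsa encodes cathepsin A, a carboxypeptidase that also protects other lysosomal enzymes. Ctsc stood at 80.2 CPM against 1361 CPM, Ctss at 632 against 2878 CPM, Ctsh at 103 against 425 CPM and Ctsl at 167 against 601 CPM. The single barcodes varied, from 0 to 6343 CPM for Ctss (median 445) and from 0 to 1781 CPM for Ctsh (median 40.4). Lamp1 stood at 119 CPM (83.6 to 164) against 637 CPM (627 to 648), and Lamp2 at 54.5 CPM (31.8 to 87.3) against 293 CPM (286 to 300). Most V-ATPase genes were thus high in barcodes that Ctsk had chosen and that were low in most other cathepsins and in Lamp1 and Lamp2.

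Genes outside the rule showed what else these barcodes held. Acp5, the tartrate-resistant acid phosphatase by which osteoclasts are stained, stood at 13170 CPM against 59.1 CPM in the other Control macrophages. Nfatc1, a transcription factor needed for osteoclast differentiation, stood at 690 against 38 CPM, Ocstamp, a membrane protein of osteoclast fusion, at 302 against 8.00 CPM, and Mmp9, a gelatinase, at 5435 against 1.64 CPM. Csf1r, the receptor for macrophage colony-stimulating factor, was present at 574 against 407 CPM, whereas C1qa stood at 38.5 against 2697 CPM. Lyz2 stood at 599.95 against 8408 CPM, and its median over the 13 barcodes was 0, with 15246 CPM in the highest. Ptprc, which encodes CD45, stood at 135 CPM (97.1 to 182) against 377 CPM (369 to 386). No marker list was fixed for such cells, so they are given no cell type name. With 1 pooled library per group, a difference between the samples and an effect of irradiation cannot be told apart.

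Atp6v0a1 was the one gene called lower in the lineage whose call remained without the Ctsk-high barcodes. In the monocyte/macrophage lineage Atp6v0a1 stood at 64.5 CPM in Control (61.6 to 67.6) and 39.8 CPM in IR (36.9 to 42.9), a log2 ratio of -0.70, and at 65.1 and 39.8 CPM without those barcodes. It stood at 50.7 and 35.1 CPM in the monocyte gate and at 67.5 and 49.4 CPM in the macrophage gate. In both gates the intervals were apart and the fold was under 1.5, and with the IR levels weighted to the Control mix of the gates the ratio was 0.73. The difference was not in every subset: Atp6v0a1 stood at 71.4 and 70.4 CPM in the Mmp12 Mmp13 subset, but at 60.8 and 39.2 CPM in cycling macrophages and 74.9 and 41.8 CPM in the Clec5a Fcgr4 Gpr84 subset. The Ccr7 Fscn1 dendritic cells also had less Atp6v0a1 in IR, at 77.1 CPM (60.8 to 96.5) and 46.1 CPM (36.0 to 58.1).

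Taken over all 23 V-ATPase genes, those called lower included, the summed level moved little. In the lineage it was 3790 CPM in Control (3767 to 3813) and 4064 CPM in IR (4034 to 4093), a ratio of 1.07, and the ratio was 1.09 in the monocyte gate and 1.08 in the macrophage gate. Atp6v0c, the most counted of them, stood at 1270 and 1498 CPM in the monocyte gate and 1278 and 1560 CPM in the macrophage gate, intervals apart in both. Atp6v1e1, a stalk subunit of V1, stood at 204 and 245 CPM in the lineage. Atp6v1a, the catalytic subunit, went the other way in the macrophage gate, at 175 CPM in Control (169 to 180) and 130 CPM in IR (121 to 140), and at 167 and 130 CPM without the Ctsk-high barcodes. Atp6v1d stood at 73.9 and 110 CPM in the monocyte gate, just under the fold required, and at 73.1 and 110 CPM without the 1 Ctsk-high barcode of that gate, just above it. With all Ctsk-high barcodes left out, the counts of called genes were 0 higher and 1 lower in the lineage (6.84% and 7.44% of all genes), 1 and 0 in the monocyte gate (5.33% and 3.56%), and 1 and 0 in the macrophage gate (4.9% and 5.5%).

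Of the 28 genes that passed in the macrophage gate, only Ctsl was called higher in IR. The gene lies on chromosome 13 (64359337 to 64370890, minus strand). Macrophages had Ctsl at 595 CPM in Control (585 to 606) and 1162 CPM in IR (1134 to 1189), a log2 ratio of 0.96. Monocytes had Ctsl at 364 CPM (348 to 381) and 500 CPM (487 to 513), a fold under 1.5. The increase was present in cells and not in a few rich barcodes alone: after thinning to 2000 UMIs, 52.8% of Control macrophages (50.6 to 55.0%) and 73.2% of IR macrophages (68.9 to 77.1%) had a Ctsl UMI. Before thinning the shares were 85.3% and 94.4%, at median depths of 9344 and 10693.5 UMIs. T cells, taken as a lineage low in Ctsl, had thinned shares of 5.57% and 6.06%, at 4313 and 5487.5 UMIs.

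The Ctsl difference was seen in the subsets of macrophages. In the Mmp12 Mmp13 subset Ctsl stood at 1239 CPM in the 312 Control and 2329 CPM in the 80 IR barcodes. In the Clec5a Fcgr4 Gpr84 subset it stood at 455 CPM in 123 and 1008 CPM in 71 barcodes, and in macrophages of no subset at 535 and 1192 CPM. The Dcstamp Ccl17 subset stood at 202 and 355 CPM, from 96 and 18 barcodes. Cycling macrophages showed a smaller gap, at 465 and 648 CPM, and in the resident-like subset, with only 9 IR barcodes, the values of 652 CPM (600 to 708) and 788 CPM (609 to 1003) overlapped. Nonclassical monocytes did not show it, at 155 CPM (102 to 225) and 150 CPM (113 to 197). Neutrophil markers moved in the same direction in the macrophage gate: the summed level of the 6 markers was 68.6 CPM in Control and 272 CPM in IR, with none at 0, and their part in the result was not tested. Neutrophils themselves had Ctsl at 331 CPM (202 to 511) and 443 CPM (385 to 508), below the macrophages of the same library. Estimated free RNA was 10.8% of UMIs in Control and 8.80% in IR macrophages, and droplets of free RNA had Ctsl at 352 and 384 CPM.

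**Figure D5:**
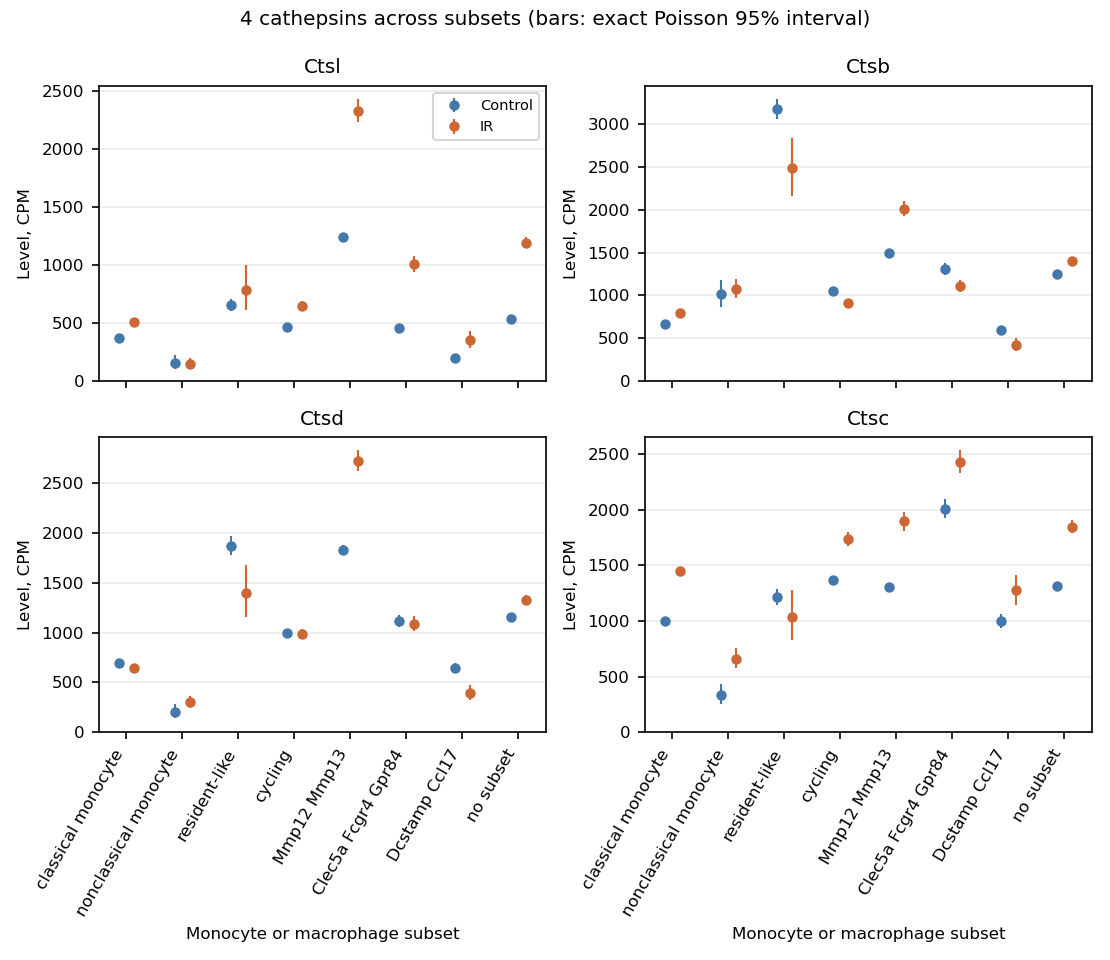
Level in CPM (y axis, linear from 0) with 95% Poisson intervals of 4 cathepsins, 1 panel each, across monocyte and macrophage subsets (x axis) in Control and IR. Ctsl in IR lies above Control in the Mmp12 Mmp13 (2329 against 1239), Clec5a Fcgr4 Gpr84 (1008 against 455) and no-subset barcodes (1192 against 535), while Ctsb in Control is highest in the resident-like subset (3180).

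For Ctsd, Ctsb and Ctsz, the direction depended on whether monocytes and macrophages were counted together. The macrophage gate supplied 80.6% of the UMIs of both gates in Control and 33.5% in IR. Ctsd, the main aspartic protease of lysosomes, stood lower in IR over both gates, with a ratio of 0.81, but higher in the macrophage gate, at 1199 CPM in Control (1185 to 1214) and 1387 CPM in IR (1357 to 1417). With the IR levels weighted to the Control mix of the gates the Ctsd ratio was 1.13, and with the Control levels weighted to the IR mix it was 0.78. Monocytes had Ctsd at 683 CPM in Control (661 to 706) and 639 CPM in IR (624 to 653), so Ctsd was higher in the macrophage gate alone. The Ctsb ratio was 0.84 as counted, 1.05 at the Control mix and 0.76 from the mix alone, and that of Ctsz was 0.96 as counted and 1.05 at the Control mix. Ctss and Ctsc did not turn, with ratios of 1.10 and 1.24 as counted and 1.23 and 1.40 at the Control mix. The sum of all cathepsins had a ratio of 1.02 as counted and 1.20 at the Control mix.

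Ctsd and Ctsc also differed among subsets. Ctsd stood at 1834 CPM in Control and 2722 CPM in IR in the Mmp12 Mmp13 subset, at 998 and 983 CPM in cycling macrophages, and at 1117 and 1089 CPM in the Clec5a Fcgr4 Gpr84 subset. Ctsc was higher in IR in both gates, at 982 and 1428 CPM in monocytes and 1347 and 1871 CPM in macrophages, with intervals apart and folds under 1.5. Ctss stood at 2444 and 2788 CPM in the monocyte gate and 2851 and 3545 CPM in the macrophage gate. Ctsz, a carboxypeptidase, stood at 921 and 957 CPM in the macrophage gate, with overlapping intervals.

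The LAMPs differed little between the libraries in either gate. Lamp1 stood at 631 CPM in Control (621 to 642) and 577 CPM in IR (557 to 596) in the macrophage gate, and at 506 CPM (487 to 526) and 539 CPM (525 to 552) in the monocyte gate, where the intervals overlapped. Lamp2, which also serves chaperone-mediated autophagy, stood at 290 and 309 CPM in the macrophage gate and 300 and 327 CPM in the monocyte gate. The summed LAMP level had a ratio of 0.97 in the lineage, 1.07 in the monocyte gate and 0.96 in the macrophage gate, and neither gene was called in a gate.

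In dendritic cells 1 of the 25 genes that passed was called higher, against 3.97% of 6781 genes, and 0 were called lower, against 3.2%. The gene was Ctsz (chromosome 2, 174427493 to 174439039, minus strand), at 571 CPM in Control (532 to 612) and 912 CPM in IR (869.97 to 955), a log2 ratio of 0.67. The difference lay in the Ccr7 Fscn1 dendritic cells, where Ctsz stood at 557 CPM (511 to 606) in 127 and 982 CPM (933 to 1033) in 151 barcodes. In the Cd209a dendritic cells the values were 742 CPM (629 to 869) and 720 CPM (636 to 813), and in the few Xcr1 Clec9a cells 477 CPM (384 to 586) and 379 CPM (252 to 547), both with overlapping intervals. Ctss in the Ccr7 Fscn1 cells stood at 1031 and 1394 CPM. Lamp2 in the Cd209a cells stood at 97.0 CPM (59.3 to 150) in 27 and 206 CPM (162 to 258) in 34 barcodes. Monocyte/macrophage markers summed to 195 CPM in Control and 166 CPM in IR dendritic cells, and their part in the result was not tested. The summed cathepsin and LAMP levels of dendritic cells both had a ratio of 1.30.

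In NK cells 0 of 25 genes were called higher, against 1.94% of 6916 genes, and 1 was called lower, against 4.53%. The gene was Ctsl at 30.5 CPM in Control (23.5 to 39.0, 64 UMIs) and 17.5 CPM in IR (13.5 to 22.2, 66 UMIs), and 21 of the 64 Control UMIs came from 1 barcode. Ctsw was the gene that lay farthest above the mean of the other lineages in NK cells. It stood at 842 CPM (803 to 882) and 568 CPM (545 to 593), a log2 ratio of -0.57 with intervals apart and a fold just under 1.5. After thinning, 75.8% of Control NK cells (70.1 to 80.8%) and 67.6% of IR NK cells (62.5 to 72.4%) had a Ctsw UMI, with 0 of 165 Control and 0 of 183 IR dendritic cells beside them, which allows up to 1.82% and 1.64%, and NK and dendritic cells had 6296 and 7493 UMIs at the median in Control and 6569.5 and 9106 in IR. In T cells 0 of 25 genes were called in either direction, against 2.6% higher and 3.26% lower of 7391 genes, and Ctsw stood at 500 CPM (471 to 530) and 460 CPM (430 to 492). The summed cathepsin level of neutrophils was 4667 CPM in the 31 Control barcodes (4138 to 5245) and 3141 CPM in the 166 IR barcodes (2981 to 3306). Ctsb in neutrophils stood at 993 CPM (758 to 1278) and 432 CPM (375 to 496), and Ctss at 1407 and 655 CPM. These values rest on 60 and 85 Control UMIs, and with 31 Control barcodes neutrophils were below the number set for a comparison.

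Other genes of the lysosome give the background of the pathway: of 90 listed, 89 were in the matrices and 78 passed the level in the monocyte/macrophage lineage, of which 1 was called higher and 13 lower, against 6.86% and 7.51% of all genes there. Of the 13, 9 were hydrolases or their activators, a list of which 33 genes passed. Of that list, 2 of 32 were called lower in the monocyte gate, against 3.59% of all genes. In the macrophage gate 4 of 33 were called lower, against 5.58%. None of the 15 regulators that passed, which include Tfeb, its relatives and genes of the nutrient-sensing complexes around mTOR, was called in the lineage, and none of the 5 V-ATPase genes outside the rule. Cd63, a tetraspanin of late endosomes, stood at 456 CPM in Control against 195 CPM in IR, or 447 against 195 CPM without the Ctsk-high barcodes. Within the gates Cd63 was not called, at 159 and 106 CPM in monocytes and 527 and 369 CPM in macrophages, with intervals apart. Hexa, a subunit of beta-hexosaminidase, stood at 284 and 180 CPM, and at 279 and 180 CPM without them, and was not called in either gate. Acp5 stood at 190 and 45.2 CPM, but at 53.3 and 45.2 CPM without them, and in the macrophage gate it then stood at 59.1 and 73.2 CPM.

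Of 6 cathepsin inhibitors that passed in the lineage, 1 was called higher and 2 lower (6.86% and 7.51% of all genes). Of 6 in the monocyte gate 2 were called higher and 0 lower (5.3% and 3.59%). Of 6 in the macrophage gate 1 was called higher and 1 lower (4.99% and 5.58%). The serpins Serpinb6a and Serpina3g, which inhibit granule and cysteine proteases, stood at 60.6 and 29.3 CPM and at 56.0 and 33.7 CPM in the lineage. Serpina3g was also called lower in the macrophage gate, at 61.3 and 35.5 CPM. Lyz1, a lysozyme whose reads can be shared with its close copy Lyz2, was called lower in the monocyte gate, at 77.5 and 10.8 CPM, and higher in the macrophage gate, at 75.6 and 118 CPM. In the monocyte gate 77 listed genes passed, of which 3 were called higher and 2 lower, against 5.3% and 3.59% of all genes. In the macrophage gate 79 passed, of which 2 were called higher and 5 lower, against 4.99% and 5.58%.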

How the data were processed

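Single-cell 3′ RNA libraries (10x Chromium v3.1) of the Control and IR tumors were analysed from the raw UMI counts that the authors deposited, a whole number for each gene in each barcode. Per the study's methods and the labels, the authors aligned reads to mm10 (GENCODE vM23/Ensembl 98) and counted UMIs with Cell Ranger 6.0.1, whereas the file headers name Cell Ranger 4. The matrices held all barcodes. Barcodes with at least 1000 UMIs, at least 200 genes and at most 25% mitochondrial UMIs were kept (41533178 Control and 37842119 IR UMIs). No doublet caller was used. A barcode positive for more than 1 lineage kept its first lineage if that relative marker level was at least 3 times any other. T and NK markers were not set against each other in this rule. Barcodes with no such dominant lineage (406 Control, 451 IR) and those with no lineage (322, 183) were set apart, so some barcodes with markers of more than 1 lineage remained. Fixed marker genes set the lineages, and a lineage needed at least 3 marker UMIs beyond an allowance for free RNA. The gates and subsets used each barcode thinned to 2000 UMIs, and levels used all its UMIs. The scaling is CPM on the population's total, and precision is set by the UMIs behind each value.

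No test was possible with 1 library per group. Genes were named where they had at least 100 CPM in a library of the monocyte/macrophage lineage, were called, or led a lineage or subset at 20 UMIs or more, which gave 25 of 45; other lysosomal genes where called at 50 CPM or more. Genes outside the list that are described in the Ctsk-high barcodes were chosen after their values were seen. The genes, lists and rules were chosen with earlier results of these data known. GENCODE vM21 (GRCm38) gave the gene positions. The scripts were checked on simulated data. Alternatives were UMI minimums of 500 and 2000, a mitochondrial limit of 10%, removal of the 6% highest Scrublet scores (scanpy 1.11.5), TMM scaling (edgeR 4.0.16), a total without mitochondrial and ribosomal protein genes, subtraction of free RNA, other gates, no low-level filter, a fold of 2, removal of cycling macrophages and, chosen after seeing the data, removal of the Ctsk-high barcodes and a mix of 8 subsets. Python 3.11.15, scipy 1.17.1 and R 4.3.3 were used.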

Additional observations from a re-analysis of the deposited data

Results flagged for a closer look

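Ctsl went opposite ways in macrophages and NK cells: its log2 ratio of IR over Control was 0.96 in the macrophage gate and -0.81 in NK cells, from 1 library per group, and the difference between the 2 was not tested. The NK value rests on 64 Control and 66 IR UMIs, and 21 of the 64 came from 1 barcode. The NK ratio without that barcode was not computed, and the NK call was kept under 7 of 11 alternatives. Barcodes positive for more than 1 lineage with none dominant entered no comparison. They also had more Ctsl in IR, at 304 CPM in Control (288 to 319) and 524 CPM in IR (509 to 541), a log2 ratio of 0.79.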

How the results depend on the processing

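The limits are those of 1 library per group: leaving out a replicate was not possible, and intervals cover counting error only. No paired analysis was possible because each group has 1 library. Of the 9 called genes by population, 8 kept their direction under each alternative, and Ctsk in the macrophage gate had a log2 ratio of 0.00 without the Ctsk-high barcodes. That removal was not independent of Ctsk, which chose the barcodes. Ctsl in the macrophage gate ranged from 0.73 to 1.02 and was called under 13 of 14 alternatives, all but the fold of 2. Ctsz in dendritic cells ranged from 0.60 to 0.72 (10 of 11, not at a fold of 2), Ctsk in the monocyte gate from -4.36 to -1.10 (9 of 13), Atp6v0a1 in the lineage from -0.78 to -0.64 (10 of 11, not at a fold of 2), and Ctsl in NK cells from -1.10 to -0.45 (7 of 11, not at 2000 UMIs, under TMM scaling, with free RNA subtracted or at a fold of 2).

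The class sums moved mostly by a few hundredths. The cathepsin ratio over the lineage was 1.02 and became 1.06 under TMM scaling, 1.04 with free RNA subtracted, 1.03 at a mitochondrial limit of 10%, 1.03 without the Ctsk-high barcodes, and 0.96, the opposite direction, on a total without mitochondrial and ribosomal protein genes. In the macrophage gate (1.21) it became 1.19 without the highest Scrublet scores, 1.23 under TMM, 1.24 with free RNA subtracted, 1.17 gated at 1000 UMIs, 1.11 gated on Ly6c2 against C1qa, 1.22 without cycling cells, 1.19 at 2000 UMIs, 1.20 at the 10% limit, 1.23 with the stricter lineage gate, 1.15 on the reduced total and 1.22 without the Ctsk-high barcodes. In the monocyte gate (1.16) it became 1.20 under TMM, 1.27 on Ly6c2 against C1qa, 1.14 at 500 UMIs and 1.11 on the reduced total. At the Control mix (1.20) it became 1.19 without the highest Scrublet scores, at 2000 UMIs and at the 10% limit, 1.17 gated at 1000 UMIs, 1.12 on Ly6c2 against C1qa, 1.16 with the mix of 8 subsets, 1.22 with the stricter gate and 1.21 without the Ctsk-high barcodes. In T cells it fell from 1.05 to 1.0, the opposite direction before rounding, without the highest Scrublet scores.

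The LAMP ratio over the lineage (0.97) became 1.01 under TMM, the opposite direction, 0.99 with free RNA subtracted and 0.91 on the reduced total. It became 1.02 gated at 1000 UMIs, 1.03 on Ly6c2 against C1qa and 1.03 on the reduced total in the monocyte gate (1.07), and 0.91 on the reduced total in the macrophage gate (0.96). The V-ATPase ratio over the lineage (1.07) became 1.12 under TMM, 1.10 with free RNA subtracted, 1.01 on the reduced total and 1.11 without the Ctsk-high barcodes. In the macrophage gate (1.08) it became 1.09 under TMM, 1.11 with free RNA subtracted, 1.05 without cycling cells, 1.09 with the stricter gate, 1.02 on the reduced total and 1.12 without the Ctsk-high barcodes. In the monocyte gate (1.09) it became 1.12 under TMM, 1.06 with free RNA subtracted, 1.11 gated at 1000 UMIs, 1.11 on Ly6c2 against C1qa, 1.07 at the 10% limit and 1.04 on the reduced total. At the Control mix (1.08) it became 1.06 without cycling cells and with 8 subsets, 1.09 with the stricter gate and 1.12 without the Ctsk-high barcodes. In NK cells (0.95) it became 1.01 under TMM and 1.01 with free RNA subtracted, the opposite direction.

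The counts of called genes changed as follows. In dendritic cells 2 were higher under TMM, with free RNA subtracted, at 2000 UMIs and at the 10% limit, 0 at a fold of 2, and 1 was lower on the reduced total. In NK cells 0 were lower under TMM, at a fold of 2, with free RNA subtracted and at 2000 UMIs, and 1 was higher with free RNA subtracted. In the monocyte gate 2 were higher under TMM and 3 on Ly6c2 against C1qa, 0 were lower gated at 1000 UMIs and on Ly6c2 against C1qa, and 2 were lower without the low-level filter, with the stricter gate and on the reduced total. Without the Ctsk-high barcodes 1 was higher and 0 lower in the monocyte gate, 1 lower in the lineage and 0 lower in the macrophage gate. In the macrophage gate 0 were higher at a fold of 2, in the lineage 1 was higher without the low-level filter, and in T cells 1 was higher with the stricter gate. TMM scaling shifted log2 ratios by 0.02 to 0.09. The causes of these changes were not tested.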
